A study of Mus musculus with 5 samples.

Results

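The mouse genome encodes 10 cyclins of the A, B, D and E classes, and all 10 were found in the deposited gene table of 56324 rows, each in 1 row whose gene symbol equals the member's name (Ccna1, Ccna2, Ccnb1, Ccnb2, Ccnb3, Ccnd1, Ccnd2, Ccnd3, Ccne1 and Ccne2). Polyadenylated RNA had been sequenced from 3 samples of spermatids, the haploid cells that follow meiosis, and from 2 samples of spermatocytes, the cells that carry meiosis out. All samples came from C57Bl/6 males at 12 weeks of age, no treatment or genetic change is named in the labels, and the cells were separated by sedimentation at unit gravity, which sorts mainly by size. Whether each sample is 1 animal or a pool is not given, and the p-values below therefore reflect sample-to-sample spread, part of which may be technical. Those of the main test, described below, also draw on the spread of all tested genes. In bulk samples, fewer cells of a type and less RNA per cell cannot be told apart.

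Cyclins are the regulatory subunits of cyclin-dependent kinases (CDKs), which are inactive without them, and their rise and destruction orders the steps of cell division. D cyclins bind Cdk4 and Cdk6 and link growth signals to entry into the cycle, E cyclins bind Cdk2 at the start of DNA replication, A cyclins act with Cdk2 and Cdk1 in replication and the approach to division, and B cyclins form M-phase promoting factor with Cdk1. In the male germ line Ccna1 is the testis form of cyclin A and is required for the first meiotic division in mice, whereas Ccna2 is the form used in dividing somatic cells and spermatogonia. Spermatids no longer divide.

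The labelled cell types were checked against markers. All 8 spermatid markers were higher in spermatids, with a summed normalized count of 574871 to 1607939 in spermatids and 13417 to 17432 in spermatocytes. Of 7 spermatocyte markers, 6 were lower (sums 15720 to 21351 in spermatids, 130831 to 143382 in spermatocytes). Piwil1 made up most of the spermatocyte sum, with means of 5095 in spermatids and 92939 in spermatocytes. Sycp1 did not pass the test, with means of 5047 in spermatids and 6831 in spermatocytes. Means in spermatids and spermatocytes were 3227 and 10231.5 for Sycp3, 3021 and 7142 for Spo11, and 235 and 13816 for Pou5f2. How much of the cyclin signal in the spermatid libraries came from spermatocytes was not tested. Transcripts of marker genes of other cell types were also found. All 11 Sertoli cell markers and all 5 Leydig cell markers found were lower in spermatids, with sums of 2113 to 2607 and 104 to 281 in spermatids and of 61626 to 81807 and 2237 to 2761 in spermatocytes. Of 9 spermatogonia markers, 4 were higher in spermatids and 1 lower (sums 1964 to 2650 in spermatids, 1430 to 1674 in spermatocytes), and of 9 markers of myoid, stromal, endothelial and blood cells, 6 were higher and 1 lower (2617 to 2755 in spermatids, 595 to 657 in spermatocytes). No marker was at 0 in any library. Spermatid replicate 1 stood apart in late spermatid genes, with Prm1, the gene of a protamine, at 241710, 61827 and 69515 in the 3 spermatid libraries and at 1844 and 1689 in the spermatocyte libraries. Without that library the same 8 cyclins were called in the same directions, Ccnd3 at a log2 fold change of 6.10 and Ccne1 at -0.41 (limma adjusted p = 0.034). The deposited values summed to 80600836 to 96511989 per spermatid library and to 53899393 to 56855924 per spermatocyte library, so rescaling all libraries to 1 total moves the zero point.

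Promoters of the members whose levels are compared most closely below are shown first: the B cyclins Ccnb1 and Ccnb2, the abundant Ccna1, and Ccnd3, whose row spans more than 1 start. RefSeq's promoter table (build GRCm38.p6) held 7 promoters for 6 of the 10 members. Each line gives the 150 bases before the annotated start, in the direction of the gene, and capitals mark the CCAAT box, written CCAAT or, on the other strand, ATTGG.
Ccnb1: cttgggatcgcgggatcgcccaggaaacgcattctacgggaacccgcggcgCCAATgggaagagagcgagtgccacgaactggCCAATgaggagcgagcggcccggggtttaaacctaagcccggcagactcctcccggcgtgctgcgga
Ccnb2: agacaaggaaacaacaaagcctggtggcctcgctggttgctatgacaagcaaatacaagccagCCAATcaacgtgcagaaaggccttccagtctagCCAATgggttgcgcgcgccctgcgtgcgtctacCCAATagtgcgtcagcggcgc
Ccna1: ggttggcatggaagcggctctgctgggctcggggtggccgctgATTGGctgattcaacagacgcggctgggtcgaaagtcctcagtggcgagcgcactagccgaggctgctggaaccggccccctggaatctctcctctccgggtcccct
Ccnd3 upstream start: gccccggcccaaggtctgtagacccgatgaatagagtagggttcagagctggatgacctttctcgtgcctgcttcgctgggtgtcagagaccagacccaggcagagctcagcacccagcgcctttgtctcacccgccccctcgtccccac
Ccnd3 downstream start: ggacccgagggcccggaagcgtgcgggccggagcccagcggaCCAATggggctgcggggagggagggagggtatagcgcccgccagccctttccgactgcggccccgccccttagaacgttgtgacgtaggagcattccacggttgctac
These windows lie at chr13:100786487-100786636 (minus strand) for Ccnb1, chr9:70421555-70421704 (minus) for Ccnb2, chr3:55055056-55055205 (minus) for Ccna1, and chr17:47504901-47505050 and chr17:47593317-47593466 (plus) for the upstream and downstream starts of Ccnd3. In Ccnb2, 3 CCAAT boxes began 87, 54 and 21 bases before the start, which puts them 33 and 33 bases apart. In Ccnb1, 2 CCAAT boxes began 99 and 67 bases before the start, 32 bases apart. Ccna1 had 1 on the other strand, 107 bases before the start, and Ccnd3 had none at the upstream and 1 at the downstream start, 108 bases before it. Ccnb3 and Ccne1 had none. Of all 32851 promoters, 33.8% held at least 1 CCAAT box on either strand within 250 bases before the start, 10.1% held at least 2 and 2.79% at least 3. The CHR element of cell cycle genes (TTTGAA or TTCGAA) was found within 250 bases before the start in Ccnb2 alone among the 7 promoters, 167 bases before it, and in 17.1% of all promoters. The MYB core AACNG was found 4 times in Ccnb3 and 3 times in Ccna1, and 19.3% of all promoters held it at least 3 times. E2F sites spelled TTTCCCGC, TTTGGCGC or TTTCGCGC were in none of the 7 promoters and in 1.53% of all. The CRE (TGACGTCA) was in none of the 7 and in 1.55% of all. Its shorter form TGACG was found in Ccnb2 and at both Ccnd3 starts, and in 17.8% of all. The GC box GGGCGG was found 4 times in Ccne1, 3 times in Ccnb1, 2 times at the upstream Ccnd3 start, and once at the downstream start and in Ccna1. Of all promoters, 32.7% held it and 8.47% held it at least 3 times. None of these matches overlapped another motif searched. A match describes the letters only, and no match says only that these letters are not in the window.

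Of the 10 cyclins, 6 were higher in spermatids, 2 were lower and 2 did not pass the test. The test was limma on log2(value + 1) of the deposited DESeq-normalized counts, with a Benjamini-Hochberg adjusted p under 0.05 over the 28370 genes whose mean over the 5 samples was at least 10. All 10 members passed that filter, Ccnb3 only through its spermatid values. Among all tested genes 40.6% were called higher in spermatids and 36.5% lower, 77.1% in either direction. For 8 of the 10 cyclins the spermatid and spermatocyte values had no overlap, as for 85.8% of all tested genes. The median log2 fold change was 0.92 over the cyclins and 0.07 over all tested genes. The share of cyclins called, 60% higher and 20% lower, is to be read against those percentages. Over all tested genes 11512 were called higher and 10359 lower, against 8645 and 14016 with equal library totals and 9575 and 13198 with quantile normalization, and the cyclins then split into 4 higher and 3 lower and into 5 higher and 3 lower.

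**Figure D1:**
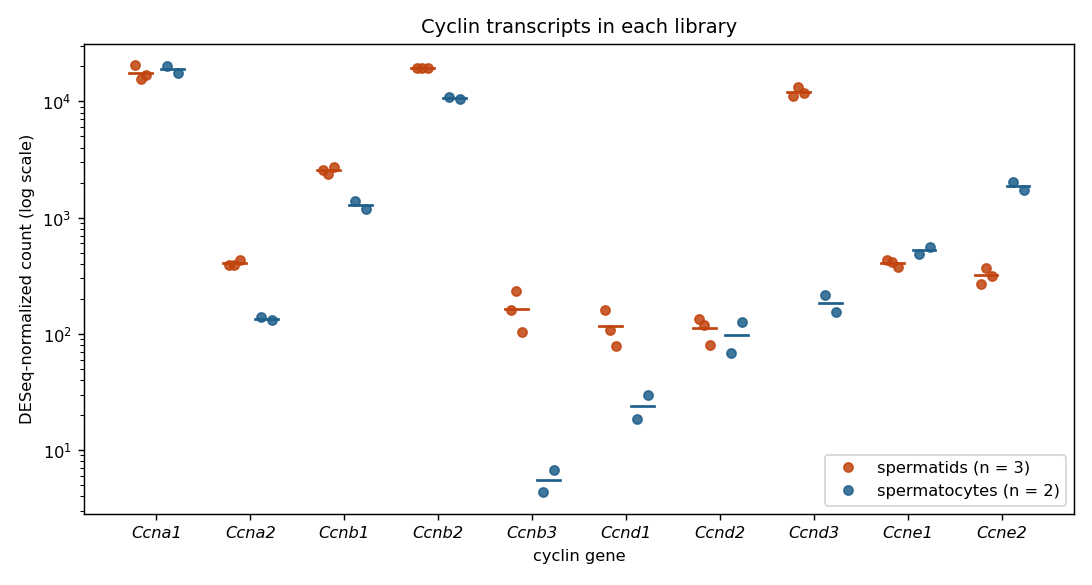
DESeq-normalized count (vertical axis, log scale) of each of the 10 cyclins (horizontal axis), with 1 point per library, 3 spermatid and 2 spermatocyte libraries, and a line at each group mean. Ccnd3 stands at 11071 to 13323 in spermatids and 154 to 214 in spermatocytes, whereas Ccna1 and Ccnd2 overlap between the groups.

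Of the A cyclins, Ccna2 was higher in spermatids and Ccna1 did not pass the test. Ccna1 (GSMG0025412, chromosome 3 from 55045469 to 55055055, mm10) had normalized counts of 20419, 15730 and 16918 in the spermatid samples and of 20058 and 17692 in the spermatocyte samples. The ranges overlapped, and the means were 17689 ± 2438 (SD, n = 3) in spermatids and 18875 ± 1673 (SD, n = 2) in spermatocytes. Its log2 fold change, on the log2(value + 1) scale and as spermatids minus spermatocytes throughout, was -0.10 ± 0.13 (SE; limma adjusted p = 0.51). It was called lower with equal library totals (-0.75) and with quantile normalization (-0.85), settings that moved the median of all genes by -0.64 and -0.45. Whether this meiotic cyclin is called lower therefore depends on the scaling. A stretch of 190 bases of its transcript is shared with an antisense gene, 4931419H13Rik, at up to 699 in spermatids and up to 555 in spermatocytes.

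Ccna2 (GSMG0025321, chromosome 3 from 36564866 to 36571999), the somatic A cyclin, was at 389, 392 and 429 in spermatids and at 140.0 and 130.1 in spermatocytes. Every spermatid value was above both spermatocyte values, and the log2 fold change was 1.57 ± 0.16 (SE; limma adjusted p = 1.1e-04). Its row shares 1163 bases with that of Exosc9, which was at 1761 to 2002 in spermatids and at 2431 to 2502 in spermatocytes, a difference in the other direction. The strand setting of the counting is not given in the sources used here, so reads in such stretches cannot be assigned to 1 gene. Of the 9 spermatogonia markers, Kit, Stra8, Gfra1 and Sohlh1 were higher in spermatids along with Ccna2, Uchl1 was lower, and Zbtb16, Dmrt1, Nanos3 and Sall4 did not pass the test. Their summed level was 1964 to 2650 in spermatids and 1430 to 1674 in spermatocytes, and the part of such cells in the Ccna2 result was not tested.

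The B cyclins Ccnb1 and Ccnb2 were both higher in spermatids, by 1.996-fold and 1.80-fold on the deposited scale. Ccnb2 (GSMG0040970, chromosome 9 from 70407689 to 70421554), which is associated with the Golgi region in somatic cells, was at 19231, 19428 and 19258 in spermatids and at 11008 and 10418 in spermatocytes. The 3 spermatid libraries differed little, with a mean of 19306 ± 106 (SD, n = 3), against 10713 ± 417 (SD, n = 2) in spermatocytes, and the log2 fold change was 0.85 ± 0.08 (SE; limma adjusted p = 7.7e-05). Ccnb1 (GSMG0011041, chromosome 13 from 100778731 to 100786509), the B cyclin needed for mitosis, was at 2578, 2367 and 2726 in spermatids and at 1388 and 1173 in spermatocytes. Its groups did not overlap either, and its log2 fold change was 1.00 ± 0.12 (SE; limma adjusted p = 2.7e-04). Both calls depended on the scaling: with equal library totals they were 0.20 (limma adjusted p = 0.11) for Ccnb2 and 0.35 (0.051) for Ccnb1, and after quantile normalization Ccnb2 was at 0.10 (0.37). Ccnb1 has 5 pseudogenes in GENCODE vM21 with at least 90% identity over at least 150 bases, which have no row under their symbols in the table. How reads that match several places were counted is not given, so the level of Ccnb1 is uncertain.

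Ccnb3 (GSMG0042312, X chromosome from 6979652 to 7041620), a B cyclin of meiosis that female mice need to complete the first meiotic division, was higher in spermatids and had the lowest level per kilobase of the B cyclins in both cell types. It was at 159.7, 232 and 103 in spermatids and at 4.31 and 6.71 in spermatocytes, the spermatocyte values being 4 and 10 reads. All spermatid values were above the spermatocyte values, although they spread more than 2-fold among themselves, and the log2 fold change was 4.62 ± 0.42 (SE; limma adjusted p = 6.9e-05), and between 3.43 and 4.92 in the settings tried. Spermatid replicate 2 was the highest and replicate 3 the lowest. Stra8, a marker of cells entering meiosis and 1 of the 4 spermatogonia markers higher in spermatids, was highest in replicate 2 as well, at 896, but lowest in replicate 1, at 499, and the part of such cells in the Ccnb3 result was not tested.

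Among the D cyclins, Ccnd3 and Ccnd1 were higher in spermatids and Ccnd2 did not pass the test. Ccnd3 (GSMG0016753, chromosome 17 from 47505051 to 47599686), the D cyclin most associated with differentiating cells, was at 11071, 13323 and 11716 in spermatids and at 214 and 154 in spermatocytes. The groups were far apart, with means of 12037 ± 1159.8 (SD, n = 3) in spermatids and 184 ± 43.0 (SD, n = 2) in spermatocytes, 65.4-fold. Its log2 fold change of 6.04 ± 0.16 (SE; limma adjusted p = 5.1e-07) was the largest of the 10 and stayed between 5.40 and 6.28 in the settings tried. The spermatocyte level was 1.53% of the spermatid level, and the same share was 1.27% to 2.58% over the 8 spermatid markers, for example 1.42% for Prm1. How much of the Ccnd3 signal in the spermatocyte libraries came from spermatids was not tested. A pseudogene, Ccnd3-ps, is 96.3% identical over 881 bases and has no row under its symbol. The end of the row shares 356 bases with Bysl, which was at 1175 to 1249.8 in spermatids and at 2529 to 2682 in spermatocytes, above Ccnd3 there. The row covers both annotated starts shown above, and 1 value per gene does not say which was used.

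Ccnd1 (GSMG0036933, chromosome 7 from 144929931 to 144939925) was at 161, 107 and 78.6 in spermatids and at 18.3 and 29.5 in spermatocytes. The spermatid values were all higher, and the log2 fold change was 2.20 ± 0.39 (SE; limma adjusted p = 0.0018). Its row shares 818 bases with Oraov1, which was at 1341 to 1778 in spermatids and at 1270 to 1400.3 in spermatocytes, so the low level of Ccnd1 is uncertain. Of the 9 markers of myoid, stromal, endothelial and blood cells, 6 were higher in the same libraries and 1 was lower. Dcn, the gene of decorin, was at 1414, 1349 and 1400 in spermatids and at 119.6 and 136 in spermatocytes. The part of these cells in the Ccnd1 result was not tested. Ccnd2 (GSMG0033704, chromosome 6 from 127125167 to 127151048), the D cyclin of spermatogonia and Sertoli cells, was at 135, 119 and 80.7 in spermatids and at 68.9 and 125 in spermatocytes. These ranges overlapped, and the log2 fold change was 0.23 ± 0.35 (SE; limma adjusted p = 0.58). Its sign turned to -0.41 with equal library totals, to -0.20 after quantile normalization and to -0.20 without spermatocyte replicate 1. Of the 11 Sertoli markers, 10 were higher in spermatocyte replicate 2 than in replicate 1, as Ccnd2 was. So were 7 of the 9 spermatogonia markers, 4 of the 5 Leydig markers and 5 of the 9 other somatic markers. The part of any of these cells in the Ccnd2 result was not tested.

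The E cyclins were the members that were lower in spermatids. Ccne2 (GSMG0026280, chromosome 4 from 11190925 to 11204779), whose loss impairs male meiosis in mice, was at 269.8, 371 and 315 in spermatids and at 2006 and 1733 in spermatocytes. Both spermatocyte values were far above the spermatid values, 5.87-fold in the means, and the log2 fold change was -2.56 ± 0.17 (SE; limma adjusted p = 1.6e-05). The row shares 5622 bases with that of Ints8, at 1418 to 1662 in spermatids and 2098 to 2147 in spermatocytes. Ccne1 (GSMG0035820, chromosome 7 from 38097982 to 38107534) was at 428, 411 and 374 in spermatids and at 490.1 and 558 in spermatocytes. The groups did not overlap, and the log2 fold change of -0.37 ± 0.14 (SE; limma adjusted p = 0.048) was just past the threshold. The call ended without spermatid replicate 2 (limma adjusted p = 0.080), spermatid replicate 3 (0.12), spermatocyte replicate 1 (0.078) or spermatocyte replicate 2 (0.24).

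**Figure D2:**
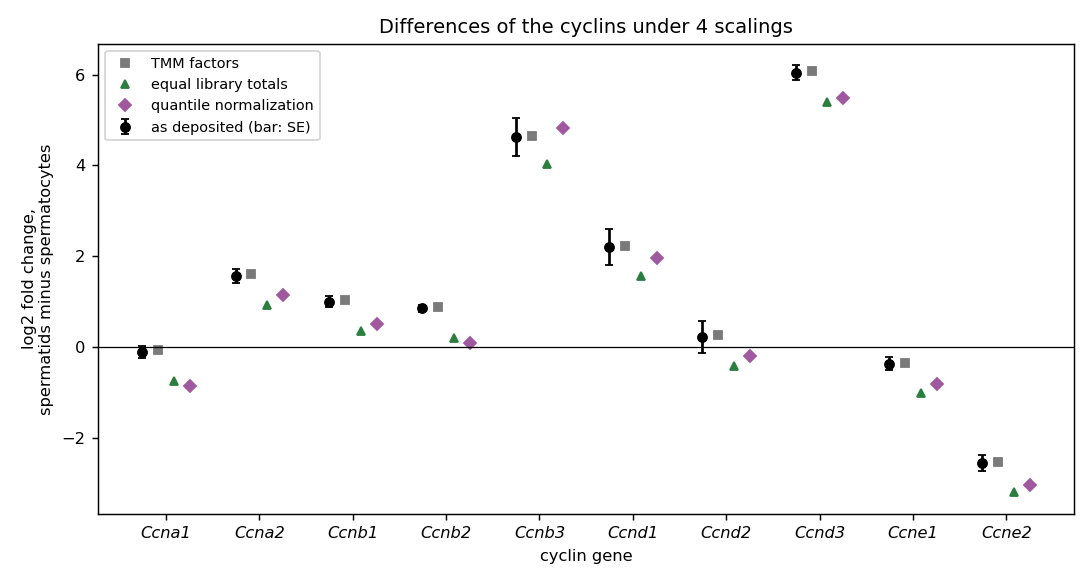
Log2 fold change (vertical axis, spermatids minus spermatocytes) of each cyclin (horizontal axis) with the deposited scaling, where bars are SE, and with 3 other scalings. Ccnd3, Ccnb3, Ccnd1 and Ccna2 stay above 0 and Ccne2 below 0 in all 4, whereas Ccnb2 comes down to 0.10 and Ccnd2 turns to -0.41.

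Levels of different genes were compared per kilobase of the longest principal transcript in GENCODE vM21, which may not be the form made in the testis. In spermatids the order was Ccnb2 (12609.9 ± 69.5 normalized counts per kilobase), Ccna1 (10290.2 ± 1418), Ccnd3 (5697 ± 549), Ccnb1 (1027 ± 72.5), Ccne1 (202 ± 13.8), Ccna2 (136 ± 7.39), Ccne2 (106 ± 16.8), Ccnb3 (36.2 ± 14.2), Ccnd1 (30.9 ± 11.2) and Ccnd2 (17.6 ± 4.40), each SD with n = 3. The ranges of neighbours in this order overlapped only for Ccnb3 and Ccnd1 and for Ccnd1 and Ccnd2. In spermatocytes Ccna1 came first (10980.5 ± 973), then Ccnb2 (6997 ± 273), Ccne2 (622 ± 64.1), Ccnb1 (515 ± 61.1), Ccne1 (262 ± 24.0), Ccnd3 (87.1 ± 20.3), Ccna2 (45.5 ± 2.37), Ccnd2 (15.3 ± 6.31), Ccnd1 (6.39 ± 2.12) and Ccnb3 (1.21 ± 0.37), each SD with n = 2. No neighbours overlapped there. Ccna1 and Ccnb2 held the first 2 places in both cell types, in opposite order.

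The make-up of the cyclin transcripts differed most in Ccnd3 and Ccna1. Ccnd3 made up 16.8%, 21.3% and 18.8% of the summed per-kilobase level of the 10 cyclins in the spermatid libraries and 0.49% and 0.39% in the spermatocyte libraries. Ccna1 made up 38.0%, 30.9% and 33.3% in spermatids and 56.9% and 55.4% in spermatocytes. Ccne2 made up 0.29%, 0.42% and 0.36% in spermatids and 3.26% and 3.11% in spermatocytes. These shares are taken within a library and do not depend on its size factor, but each depends on the levels of the other members. Ccna1 itself did not pass the test (log2 fold change -0.10), and the summed level was 1.54-fold higher in spermatids on the deposited scale. The summed level was 29554 to 31249 normalized counts per kilobase in spermatids and 18569.6 to 20494 in spermatocytes on the deposited scale.

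**Figure D3:**
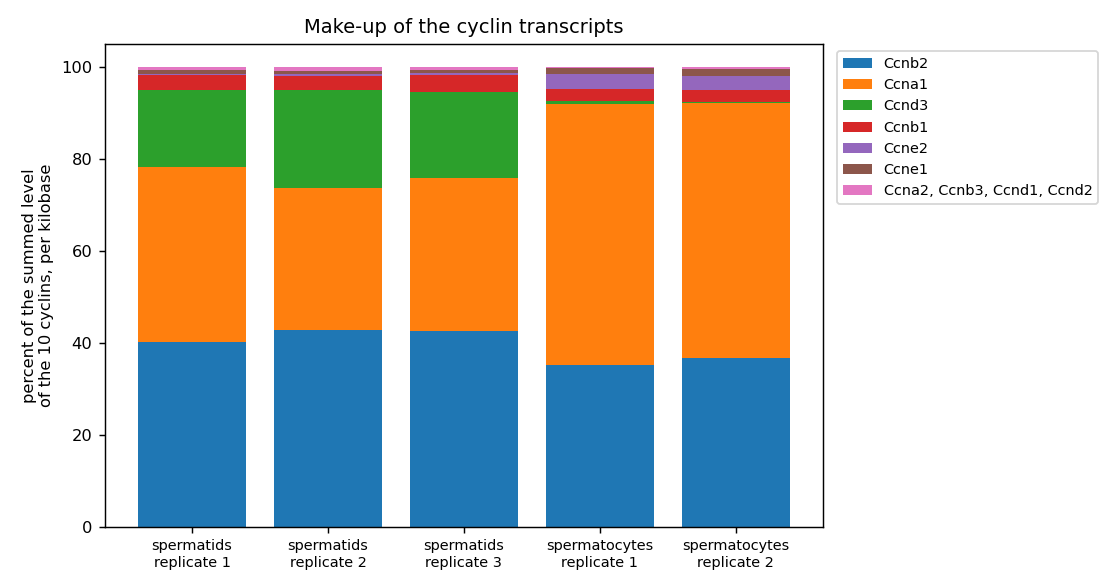
Percent of the summed per-kilobase level of the 10 cyclins (vertical axis) held by each gene in each library (horizontal axis), 3 spermatid and 2 spermatocyte libraries, with the 4 least abundant genes pooled. The Ccnd3 segment is 16.8% to 21.3% in spermatids and 0.39% to 0.49% in spermatocytes.

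Ratios of paralogs within a library were compared for 6 pairs, as the log2 ratio of value + 1. The size factor cancels in such a ratio except for the added 1, which weighs most on the low genes. The smallest two-sided p that 3 against 2 samples allow in an exact permutation test is 0.2, so none could pass. The log2 ratio of Ccnb1 to Ccnb2 averaged -2.92 ± 0.11 (SD, n = 3) in spermatids and -3.07 ± 0.12 (SD, n = 2) in spermatocytes, a difference of 0.15 with overlapping values (exact permutation p = 0.4). The other 5 ratios did not overlap between the cell types, each with exact permutation p = 0.2 (0.24 adjusted over the 6). The ratios among the D cyclins share genes and are not independent. No share over other gene pairs was taken, and among single tested genes 85.8% had no overlap. Ccne2 to Ccne1 averaged -0.35 ± 0.27 in spermatids and 1.83 ± 0.28 in spermatocytes, so that Ccne1 was the higher of the pair in every spermatid library and Ccne2 in every spermatocyte library. Ccna2 to Ccna1 averaged -5.44 ± 0.23 in spermatids and -7.11 ± 0.05 in spermatocytes. Ccnd1 to Ccnd2 averaged 0.02 ± 0.21 in spermatids and -1.95 ± 0.14 in spermatocytes. Ccnd1 to Ccnd3 averaged -6.75 ± 0.58 in spermatids and -2.91 ± 0.80 in spermatocytes, and Ccnd2 to Ccnd3 averaged -6.77 ± 0.41 in spermatids and -0.96 ± 0.94 in spermatocytes.

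**Figure D4:**
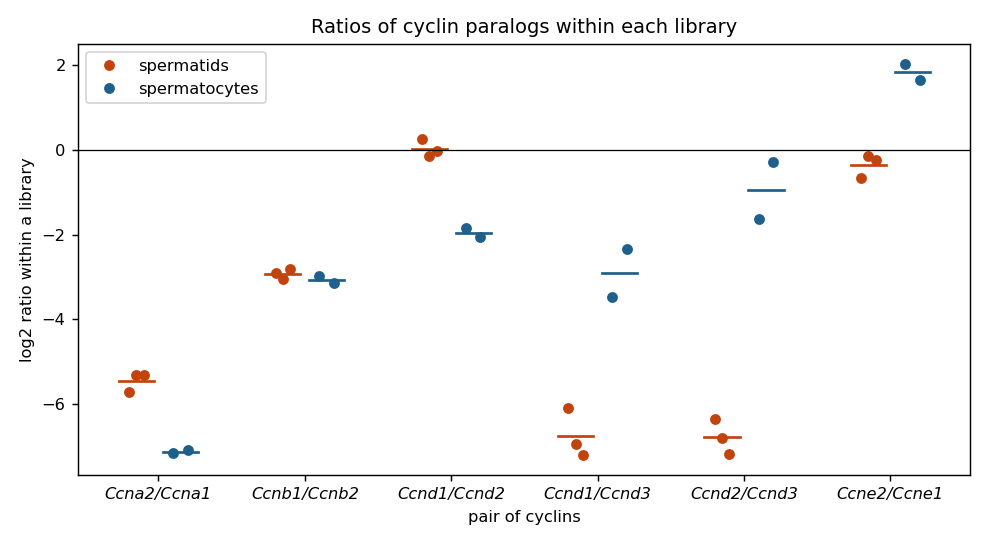
Log2 ratio of the deposited value + 1 of 2 cyclins within a library (vertical axis) for 6 pairs (horizontal axis), with 1 point per library and a line at the mean of each cell type. Ccnb1 to Ccnb2 overlaps between the cell types, at -2.92 in spermatids and -3.07 in spermatocytes on average, and the other 5 pairs do not.

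Of the 4 kinases that these cyclins activate, 3 were lower in spermatids and 1 did not pass the test, where 36.5% of all tested genes were lower. Cdk2, the partner of A and E cyclins, was at 576 ± 46.0 (SD, n = 3) in spermatids and 6276 ± 112 (SD, n = 2) in spermatocytes, a log2 fold change of -3.45 ± 0.11 (SE; limma adjusted p = 7.9e-07). Cdk1, the catalytic subunit of M-phase promoting factor, was at 852 ± 38.9 in spermatids and 4060.0 ± 196 in spermatocytes (-2.25 ± 0.10, limma adjusted p = 2.9e-06). Cdk4, a partner of the D cyclins, was at 249 ± 27.0 in spermatids and 805 ± 134 in spermatocytes (-1.68 ± 0.17, limma adjusted p = 1.3e-04), and Cdk6, the other, at 284 ± 19.1 in spermatids and 392 ± 77.4 in spermatocytes (-0.45 ± 0.18, limma adjusted p = 0.054). Spermatids thus had lower levels of Cdk1, Cdk2 and Cdk4 on the deposited scale. Among the cyclins, Ccnb1, Ccnb2, Ccnb3, Ccna2, Ccnd1 and Ccnd3 were higher there. Ccne1 and Ccne2 were lower, and Ccna1 and Ccnd2 did not pass the test. The exceptions for Ccna1, Ccnb1, Ccnb2 and Ccnd2 with other scalings, and for Ccne1 without single libraries, are those given above. Cdk6 was called lower with equal library totals and with quantile normalization, as was Cdkn2b among the inhibitors. The value of Cdk6 also depended on single libraries, at -0.65 to -0.25 when each was left out in turn.

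Of 7 CDK inhibitors, 5 were lower in spermatids, 1 was higher and 1 did not pass the test, where 36.5% of all tested genes were lower and 40.6% higher. In the INK4 family, which blocks Cdk4 and Cdk6, Cdkn2d was at 2139 ± 209 in spermatids and 11035 ± 186 in spermatocytes (log2 fold change -2.37), Cdkn2c at 4047 ± 399.7 in spermatids and 9767 ± 608 in spermatocytes (-1.27), and Cdkn2a at 112 ± 15.9 in spermatids and 250.1 ± 5.74 in spermatocytes (-1.17). Cdkn2b was at 281 ± 20.4 in spermatids and 311 ± 29.8 in spermatocytes (limma adjusted p = 0.43). In the Cip/Kip family, which binds cyclin and kinase together, Cdkn1b was at 32.5 ± 20.1 in spermatids and 625 ± 141 in spermatocytes (-4.42 ± 0.56) and Cdkn1a at 186 ± 40.4 in spermatids and 423 ± 15.1 in spermatocytes (-1.20). Cdkn1c was the one that was higher, at 408 ± 150.4 in spermatids and 47.7 ± 1.09 in spermatocytes (3.01 ± 0.30, limma adjusted p = 1.1e-04). Sertoli cells are known to express Cdkn1b, and their markers were higher in the spermatocyte libraries, as given above; their part in the Cdkn1b value was not tested.

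**Figure D5:**
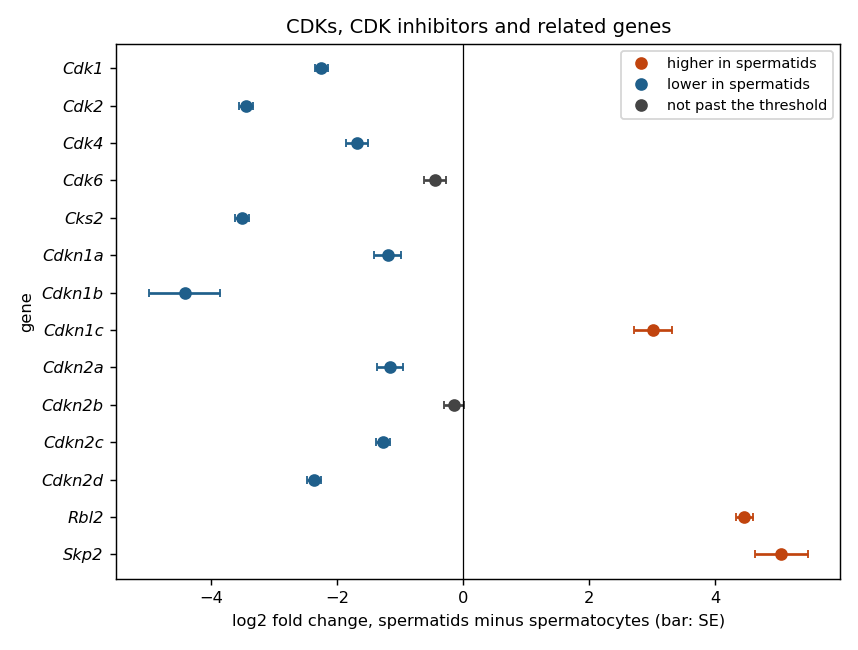
Log2 fold change (horizontal axis, spermatids minus spermatocytes, bars SE, 3 and 2 samples) of the CDKs that A, B, D and E cyclins bind, their inhibitors and the genes with the largest differences in the same list (vertical axis). Cdk1, Cdk2 and Cdk4 lie at -2.25, -3.45 and -1.68, and Rbl2 and Skp2 at 4.46 and 5.05.

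The whole list held CDK partners, inhibitors, pocket proteins, E2F factors, parts of the cyclin-degrading ligases, and Lin9, Lin52, Lin54, Mybl1, Mybl2 and Foxm1. Of its 42 genes, 41 were found and tested. Of these, 14 were higher in spermatids and 21 lower, 34.1% and 51.2%, with a median log2 fold change of -0.48. Over all tested genes 40.6% were higher and 36.5% lower, with a median of 0.07. The rows of Cdk4, Skp2 and Rbl2 overlap those of other named genes (Tspan31, Lmbrd2 and Aktip), so their levels carry the same doubt about strand. The largest differences downward were those of Cdkn1b and of Cks2, a small CDK-binding protein needed for meiosis in mice, at 509 ± 35.1 in spermatids and 5801 ± 298 in spermatocytes. Upward they were those of Skp2 and Rbl2. Skp2, the F-box protein that marks Cdkn1b protein for destruction, was at 12496, 4663 and 4823 in spermatids and at 189.6 and 205 in spermatocytes, highest by far in spermatid replicate 1. Rbl2, the pocket protein p130 of cells that have left the cycle, was at 11838 ± 1819 in spermatids and 533 ± 1.32 in spermatocytes (log2 fold change 4.46 ± 0.14).

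Cyclins outside the 4 classes, several of which act in transcription and not in division, were 20 genes, of which 9 were higher in spermatids and 6 lower, with a median log2 fold change of 0.15. These shares, 45% and 30%, lie near those of all tested genes, 40.6% and 36.5% with a median of 0.07. The largest upward were Ccnt1, the cyclin of the elongation factor P-TEFb, at 3699 ± 413 in spermatids and 452 ± 20.2 in spermatocytes (3.02 ± 0.12), and Ccnyl1 at 2289 ± 277 in spermatids and 536 ± 112 in spermatocytes (2.10 ± 0.17). The largest downward were Fam58b at 38.4 ± 15.0 in spermatids and 336 ± 33.7 in spermatocytes (-3.18 ± 0.38), and Ccnj at 108 ± 15.0 in spermatids and 383 ± 15.5 in spermatocytes (-1.82 ± 0.20). Ccnt1 had 2 rows under its symbol, and the one with the higher mean is given. The rows of Ccnt1 and Ccnyl1 overlap those of 9330020H09Rik and 2810408I11Rik, so their levels carry the same doubt about strand. With equal library totals the counts of the other cyclins turned to 5 higher and 10 lower.

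For the member of each class with the highest mean over the 5 samples, which in the E class is Ccne2 although Ccne1 was the higher in spermatids, the 3 genes most like it were found among 11924 candidates by the distance of centred log2 values over the 5 samples, a measure of likeness only. Nearest to Ccna1 were Slc12a2, Thumpd3 and Ap3m1, at distances of 0.056, 0.061 and 0.063. Nearest to Ccnb2 were Fancl, Brd3 and Cmss1, at 0.034, 0.047 and 0.048. Nearest to Ccnd3 were Slc25a41, Arrdc5 and Tmem191c, at 0.094, 0.10 and 0.11, of which Arrdc5 was at 20855 ± 2155 in spermatids and 302 ± 61.9 in spermatocytes. Nearest to Ccne2 were Sfrs18, Sox18 and Ncapd3, at 0.11, 0.15 and 0.18.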

How the data were processed

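The authors deposited 1 table whose normalized signal is a read count per gene, scaled by a size factor for each library; DESeq is named in the submitters' processing notes. These also list STAR 2.4.0, SAMtools, Picard, FastQC and mm10, with no role or order. Libraries of polyadenylated RNA were made with a stranded kit, per the labels' protocols. The counting program, its strand setting and its handling of reads with several matches are not stated in any source used.

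The cell type label set each group, and accession order the replicate numbers. The main test, on genes whose mean reached 10, was limma 3.58.1 under R 4.3.3 (eBayes with trend) on log2(value + 1), which understates the change of low genes, adjusted over all tested genes. Members and lists were chosen with earlier results of these data known. Named genes were the 10 members, their CDKs and CDK inhibitors, the 2 largest calls each way per list among genes averaging 100 or more in their higher group, and the 3 genes most like the leading member of each class. Of 56324 rows, 32111 carry no symbol.

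Whole reads were recovered in 4 libraries, where 100% of values were whole multiples of the smallest within 0.001, with totals of 52784231 to 80384019 reads. The step of spermatid replicate 2, 0.991, is too near 1 to be accepted as recovered, so edgeR 4.0.16 (quasi-likelihood) and DESeq2 1.42.0 were run without it, a choice made after seeing the data. They called 20931 and 19893 of 28370 genes; limma on the same 4 libraries, with the filter applied anew, called 21192 of 28595. TMM factors were taken on the deposited values for the same reason. The limma step was tested on simulated data with libraries of equal depth and few changed genes. That simulation does not cover the scaling of the libraries. Ratios were tested with scipy 1.17.1, summaries made with pandas 2.3.3 in Python 3.11.15, similar transcripts found with BLAST, and plots made with matplotlib 3.10.9. A planned comparison of protein sequences was not run.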

Additional observations from a re-analysis of the deposited data

How the results depend on the processing

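Ccna2, Ccnb3, Ccnd1, Ccnd3 and Ccne2 kept their direction and their call in every setting in which they were tested, and Ccnd1 was not tested with a mean of at least 100. With libraries rescaled to the same total, Ccna1 was called at -0.75 (log2 fold change), Ccnb1 (0.35) and Ccnb2 (0.20) lost their calls, Ccnd2 turned to -0.41, and the other cyclins had 5 higher and 10 lower; E2f4 (-0.13), Cul3 (-0.090), Lin54 (-0.41), Ccnc (-0.40), Ccni (-0.60) and Ccnl2 (-0.073) changed sign. After quantile normalization Ccna1 was called at -0.85, Ccnb2 lost its call at 0.10, Ccnd2 turned to -0.20, and E2f4 (-0.022), Cul3 (-0.14), Lin54 (-0.26), Ccnc (-0.21), Ccni (-0.71) and Ccnk (-0.038) changed sign. Of these genes, Lin54 and Ccni were not called as deposited but were called lower in both settings. Their limma adjusted p values with equal totals and with quantile normalization were 0.012 and 0.048 for Lin54 and 8.9e-04 and 4.0e-04 for Ccni. The median of all genes was -0.57 and -0.39 in these settings, against 0.07 as deposited. Ccne1 lost its call with DESeq2 (-0.39), edgeR (-0.39), TMM factors (-0.34) and eBayes without a trend (-0.37), which left 1 member lower in spermatids in each. The causes were not tested. Leaving out each library in turn gave -0.47 to -0.28 for Ccne1, -0.20 to 0.65 for Ccnd2, -1.26 to 0.038 for E2f3, -0.36 to 0.018 for Inca1, -0.15 to 0.059 for Cables2, and 1 to 2 members lower, with 1 left without spermatid replicate 2 or 3 or either spermatocyte replicate. The 6 paralog ratios kept their direction with other pseudocounts, per kilobase and without each library. A lone spermatocyte sample was assumed to vary like the spermatids, and ratios then had no test. Each member had 1 row, so summing rows changed nothing. No paired analysis was possible because the labels give no replicate numbers that are shared between the groups. Ccnb3 and Ccnd1 rest on few reads in spermatocytes, 4 and 10, and 17 and 44.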
